A study of Equus caballus with 16 samples.

Results

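The 100 genes described here had a higher share of reads with a hairpin against Scleraxis than with a non-target hairpin in each of 8 lines of cultured horse tenocytes, the resident cells of tendon. They were chosen from 21689 genes by measured values. For each line, CPM values (counts scaled to the library's total count) were raised by 1, and the log2 ratio of the shSCX library to the non-target (NT) library was taken. Genes with a mean under 2 CPM in the shSCX libraries and the 100 genes with the highest mean CPM in NT libraries were set aside, which kept 10991 genes. The 100 with the highest minimum ratio over the 8 lines are the members. Their shSCX ratios chose them, so those ratios are described and not tested. Each member is referred to by its rank in that minimum, with rank 1 the highest.

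The series holds 16 libraries of Equus caballus tenocytes. The adult lines TB171012, TB180412, TB130911 and S came from horses of 2 to 10 years, and the fetal lines 271d, 316d, 319d and 320d from fetuses at gestation days 271, 316, 319 and 320. Each line gave 1 NT and 1 shSCX library, so there were 4 libraries in each of 4 groups: adult NT, adult shSCX, fetal NT and fetal shSCX. Both hairpins were carried stably by the TRC2-pLKO.1-puro plasmid in serum-containing culture, at passages 5 to 8, and both libraries of a line had the same passage. The SCX hairpin was designed against the human gene, and the labels give a single SCX clone, so effects of losing SCX and other effects of that hairpin cannot be told apart. Total counts ran from 17628158 to 26157162 per library. The tables list horse Ensembl identifiers without symbols, and 0 of them matched the gene table used here. The level of SCX, the markers of tenocytes and of other cell types, and the functions of the members were therefore not analysed here. At most 2 identifiers per direction are given for each comparison.

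Scleraxis, encoded by SCX, is a basic helix-loop-helix transcription factor that marks tendon progenitors and tenocytes, and it is known for its part in tendon formation and in the expression of tendon matrix genes. A short hairpin RNA is cut in the cell to a small RNA that guides the breakdown of transcripts with a matching sequence. In RNA from whole cultures, more transcript per cell and more cells with the transcript cannot be told apart.

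Rank 1, ENSECAG00000017618, had nearly the same level in every NT library and nearly the same higher level in every shSCX library. In adult lines TB171012, TB180412, TB130911 and S its NT levels were 134, 119, 131 and 131 CPM, and its shSCX levels were 519, 453, 431 and 469.96 CPM. In fetal lines 271d, 316d, 319d and 320d its NT levels were 119, 110.3, 139 and 112 CPM, and its shSCX levels were 479.9, 423, 502 and 489 CPM. The lowest shSCX library (423 CPM) lay well above the highest NT library (139 CPM), and adult and fetal lines were interleaved in both. Its log2 ratio was 1.91 ± 0.12 (SD, n = 8), or 3.77-fold, and ran from 1.72 to 2.12.

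Rank 2, ENSECAG00000004824, showed the same evenness at lower counts. Adult NT levels were 24.4, 21.5, 20.6 and 21.5 CPM in the line order above, against 93.2, 60.8, 67.1 and 76.7 CPM with shSCX. Fetal NT levels were 23.7, 19.9, 25.995 and 19.2 CPM, against 79.4, 81.8, 85.7 and 72.5 CPM with shSCX. No NT library reached any shSCX library, and the log2 ratio was 1.75 ± 0.16 (SD, n = 8), or 3.37-fold.

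**Figure D1:**
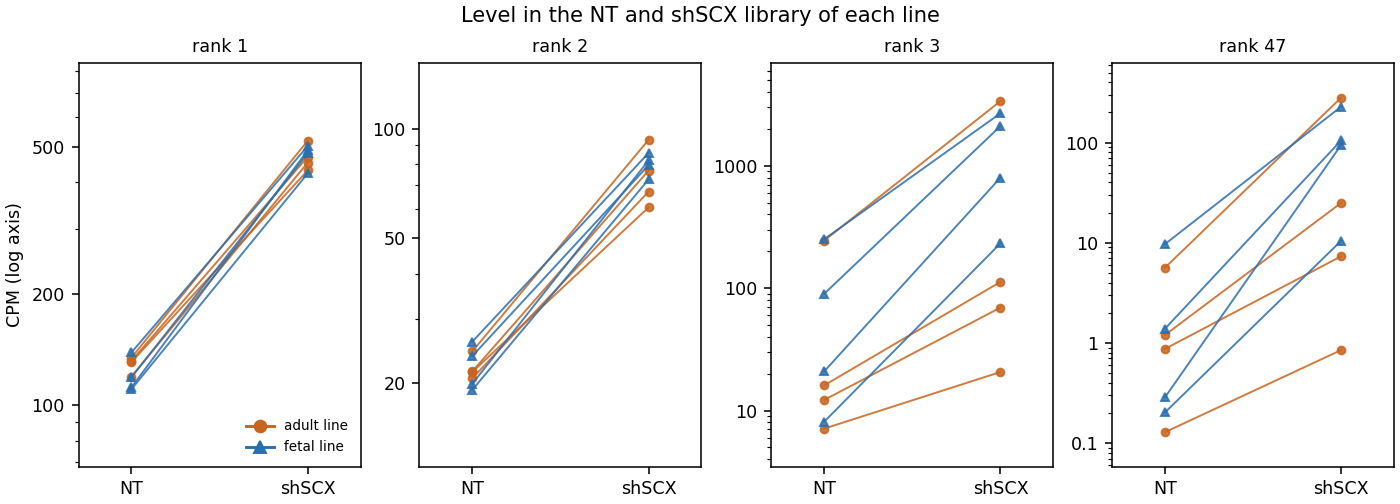
Level in CPM (log axis) in the NT and shSCX library of each line for ranks 1, 2, 3 and 47, with 1 line of the plot per cell line, adult lines as orange circles and fetal lines as blue triangles. Ranks 1 and 2 run in a narrow band from NT to shSCX, while ranks 3 and 47 differ widely between lines in both libraries.

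Beyond this pair the ratios were smaller or less even. The minimum ratio had a median of 0.69 over the members and the mean ratio a median of 1.14, or 2.20-fold, with a range of mean ratios from 0.71 to 3.91. Over the 10991 genes the median of the mean ratio was 0.05. In 13 members, ranks 1 to 13, the shSCX library was at least 2-fold higher in 8 of 8 lines, which is 0.118% of the 10991 genes. At the level of the mean ratio 66 members reached 2-fold (1.31% of the 10991 genes did) and 10 reached 4-fold. The rule used these ratios, so the shares are given only to place the members. The threshold fell in a continuous run of genes: ranks 98, 99 and 100 had minimum ratios of 0.5105, 0.5077 and 0.5067, and the next 3 genes outside had 0.5042, 0.4989 and 0.4812.

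In 48 members every one of the 8 shSCX libraries was above every NT library, where 0.837% of the 10991 genes did so. Within stages this was the case in 60 members for adult lines (1.98% of the 10991 genes) and in 82 for fetal lines (5.63%), and 57 members were separated in both. The 15 members separated in neither stage, ranks 3 and 5 among them, had NT libraries of some lines above shSCX libraries of others. Their shSCX library was higher within each line, while single libraries of the groups overlapped.

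**Figure D2:**
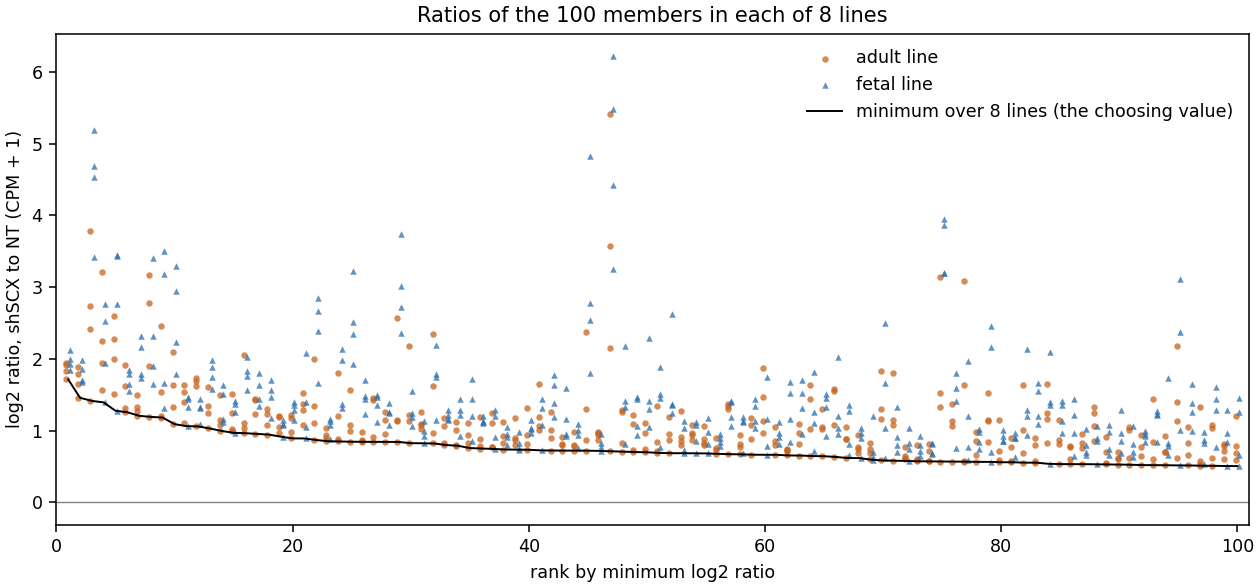
Log2 ratio of shSCX to NT on the CPM + 1 scale for each of the 100 members (x axis, rank by minimum ratio) in adult lines (orange circles) and fetal lines (blue triangles), with the minimum over 8 lines as a black line. Ratios vary most in ranks 3, 29, 45, 47 and 75, with an SD of at least 1. Some other members also reach far above their minimum, such as rank 9 (1.18 to 3.51) and rank 25 (0.85 to 3.22).

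The members differed most in how far their ratios varied between lines. The SD of the ratio over 8 lines ran from 0.095 to 1.86 with a median of 0.29, beside a median of 0.25 over the 10991 genes. In 27 members, ranks 1 and 2 among them, it was under 0.2, and their mean ratios ran from 0.71 to 1.91. The most even was rank 56. Its NT levels were 218, 204, 216 and 225 CPM in adult lines and 206, 226, 238 and 217 CPM in fetal lines. With shSCX it had 409, 339, 367 and 361 CPM in adult lines and 399, 407, 412 and 407 CPM in fetal lines. The groups did not overlap, and the ratio of 0.82 ± 0.095 (SD, n = 8) is a 1.77-fold difference. Of the 27 even members, 22 had no overlap of shSCX and NT over all 16 libraries, against 26 of the other 73. Over the 10991 genes 0.837% had none, and their split by SD is not given here. Both the SD and the overlap come from libraries that the rule used, so this split is description only.

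At the other end, 5 members had an SD of at least 1: ranks 3, 29, 45, 47 and 75. In 5 of these 5 the lowest ratio was in an adult line and the highest in a fetal line. This was common in the whole list. Of the 100 members, 76 were lowest in an adult line and 77 highest in a fetal line, or 57 and 65 with TMM scaling. The same counts over the 10991 genes are not given here, so these do not set the members apart. Of those genes 64.3% had the higher mean ratio in fetal lines, or 49.2% with TMM scaling. Rank 3 had adult NT levels of 245, 7.11, 12.2 and 16.05 CPM and adult shSCX levels of 3377, 20.6, 69.4 and 113 CPM in TB171012, TB180412, TB130911 and S. Its fetal NT levels were 89.8, 20.9, 251 and 8.09 CPM and its fetal shSCX levels 2112, 800.5, 2688 and 233 CPM in 271d, 316d, 319d and 320d. TB171012, 319d and 271d were the highest lines with either hairpin, and the groups overlapped. The ratio was 3.52 ± 1.28 (SD, n = 8), from 1.42 in TB180412 to 5.20 in 316d.

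Rank 47 had the largest mean ratio, 3.91 ± 1.86 (SD, n = 8), or 14.98-fold on this scale. Adult NT levels were 5.63, 0.129, 0.872 and 1.199 CPM, against 282, 0.85, 7.34 and 25.1 CPM with shSCX. Fetal NT levels were 1.38, 0.286, 9.70 and 0.202 CPM, against 106, 95.1, 229 and 10.5 CPM with shSCX. As in rank 3, TB171012, 319d and 271d were highest and TB180412 lowest with either hairpin. Its rank is set by TB180412, where 3 NT counts and 18 shSCX counts gave a ratio of 0.71.

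Rank 75 had adult NT levels of 0.367, 1.03, 2.83 and 0 CPM and adult shSCX levels of 11.05, 4.11, 4.69 and 1.87 CPM. Its fetal NT levels were 0.494, 0.143, 0.774 and 0.0506 CPM, against 22.03, 15.7, 15.3 and 8.62 CPM with shSCX. The fetal groups were far apart and the adult groups overlapped. In line S it had 0 NT counts and 39 shSCX counts. Adding 1 CPM holds down the ratio of such a gene: 6 members had an NT library with under 10 counts, while 68 members had at least 100 counts in every NT library.

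Rank 45 had adult levels of 6.49, 0.557, 1.96 and 0.507 CPM with NT and 37.7, 2.83, 4.39 and 1.49 CPM with shSCX. Fetal levels were 1.68, 0.858, 1.91 and 0.657 CPM with NT and 75.4, 11.7, 9.16 and 8.68 CPM with shSCX. Line 271d stood above the other fetal lines with shSCX, with a ratio of 4.83. Rank 29 had another order of lines: adult NT levels were 18.8, 154, 26.4 and 86.6 CPM, highest in TB180412, and the fetal NT levels of 41.8, 23.6, 12.7 and 10.1 CPM were followed by 218, 197, 89.5 and 148 CPM with shSCX. Its adult shSCX levels were 42.4, 342, 161 and 156 CPM.

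The members together held 0.362% ± 0.018 of the counts in adult NT and 0.337% ± 0.051 in fetal NT libraries (SD, n = 4 each), and 0.845% ± 0.210 and 0.971% ± 0.202 with shSCX. Rank 3 alone made up 13.0% of the members' mean CPM with shSCX and 2.32% with NT. No transcript lengths were used, so levels are not compared between genes.

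Lines differed in the size of the ratios. The median ratio of the members was 1.15, 0.98, 0.87 and 0.93 in adult lines TB171012, TB180412, TB130911 and S. In fetal lines 271d, 316d, 319d and 320d it was 1.21, 1.29, 1.07 and 1.35. All 10991 genes had medians between -0.07 and 0.04 in the adult and between 0.06 and 0.14 in the fetal lines, so the median of all genes moved with the stage under total-count scaling. TMM scaling sets the bulk of the genes near 0. With it the members' medians lay between 0.91 and 1.09 for adult and between 0.97 and 1.29 for fetal lines. The stages overlapped with either scaling, since TB171012 (1.15) lay above 319d (1.07) under total-count scaling. TB180412, the line at the lowest passage (5), had the lowest ratio for 32 of the 100 members, and for 31 with TMM scaling. The same count over all genes is not given here, and their median was also lowest in this line (-0.07 with either scaling). The members' median less that of all genes was 1.05 in TB180412. Over the lines this difference ran from 0.88 in TB130911 to 1.28 in 320d. Passage also differed among the other lines: TB130911, S and 319d were at passage 8 and had the lower medians of their stage beside the lines at passage 7. With 1 to 3 lines at each passage within a stage, its part in these values was not tested.

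**Figure D3:**
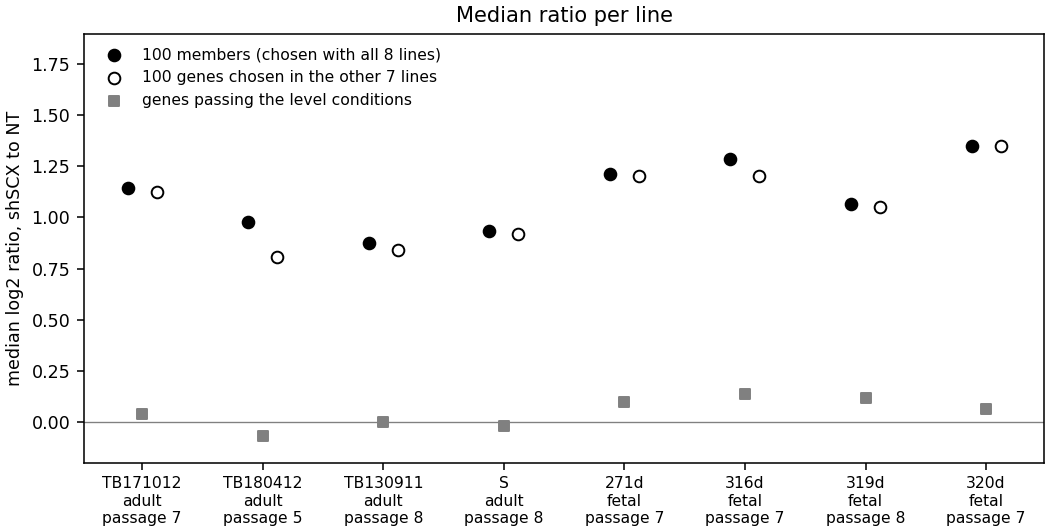
Median log2 ratio of shSCX to NT in each line (x axis, with stage and passage) for the 100 members (black), for 100 genes chosen by the same rule in the other 7 lines (white) and for all genes that pass the level conditions (grey squares). The black and white points lie between 0.81 and 1.35 in every line, and the grey squares lie near 0.

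Each line was then read with genes that it had not helped to choose. The rule was repeated on 7 lines at a time, and the ratios of the 100 genes so chosen were taken in the line left out. In the adult lines, in the order above, 99, 98, 91 and 100 of 100 such genes had a ratio above 0, where 55.4%, 41.8%, 49.5% and 46.3% of all genes passing the level conditions did so. In the fetal lines the counts were 100, 98, 99 and 100, against 63.7%, 62.2%, 63.4% and 57.0%. The median ratio in the line left out was 1.13, 0.81, 0.84 and 0.92 over the adult lines. Over the fetal lines it was 1.205, 1.204, 1.05 and 1.35. The lowest values were those of TB180412 and TB130911, and every one of the 8 medians lay above those of all genes, which ran from -0.07 to 0.14. Between 32 and 71 of the 100 genes were at least 2-fold higher in the line left out, where 0.892% to 11.5% of all genes passing the level conditions were. The 11.5% was that of 316d, and every other line had 3.67% or less.

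Lists chosen within one stage were read in the other, which shares no library with it. Of the 100 genes with the highest minimum ratio in 4 adult lines, 94 were above 0 in 4 of 4 fetal lines, where 34.2% of all genes passing the level conditions were, and the median of their mean ratios was 1.08 in adult and 1.21 in fetal lines. Of the 100 chosen in fetal lines, 73 were above 0 in 4 of 4 adult lines, where 13.0% of all genes were, and the median was 1.70 in fetal and 0.88 in adult lines. The adult list shared 77 genes with the members, the fetal list 44, and the lists shared 40 with each other.

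The difference between fetal and adult lines in the shSCX effect was tested as an interaction, with the line as a block, over 12888 genes. All 100 members were tested and 0 passed (edgeR adjusted p at least 0.307), as in the whole table, where 0.00% passed. DESeq2 called 0 of the 96 members with an adjusted p, where 38 of 10889 genes passed (0.349%), and limma voom called 0 members and 0.00% of all genes. At unadjusted p under 0.05, 14 members had the larger effect in fetal lines (9.75% of all genes tested) and 0 in adult lines (5.82%), or 1 when TB130911, S, 271d or 320d was left out. Without the line as a block 1 member in place of 14 had the larger effect in fetal lines at that p. The fitted difference was above 0 in 71 members, beside 50.0% of all genes tested, and its median was 0.11 on the log2 scale, beside 0.00 over all genes. The rule bounded the total-count ratios of the members from below, by the same value in every line. With TMM scaling, which this test used, the lowest ratios per line were 0.505 to 0.531 in adult lines. In fetal lines they were 0.367 to 0.476. The counts come from the libraries that chose the members, and the effect of that bound on them was not tested.

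**Figure D4:**
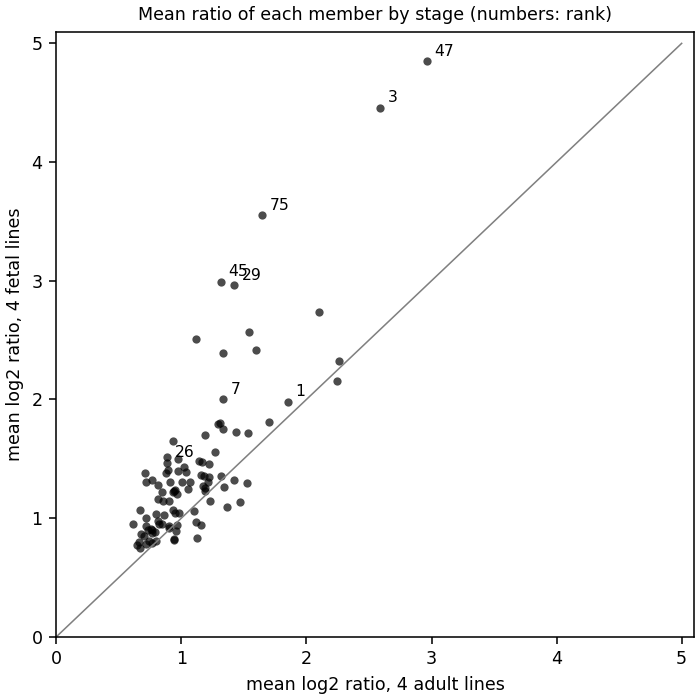
Mean log2 ratio of shSCX to NT over 4 adult lines (x axis) and over 4 fetal lines (y axis) for each member, by total-count CPM, with the line of equal values and the ranks of 8 members. Of the 100 members 85 lie above the line with this scaling and 68 with TMM scaling, where 64.3% and 49.2% of all genes passing the level conditions do.

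ENSECAG00000019700 (rank 26) had the smallest p of the members in this test. Its ratios were 0.85, 0.97, 0.87 and 0.86 in the adult lines and 1.44, 1.71, 1.48 and 1.23 in the fetal lines, and the stages did not overlap. The fitted difference was 0.51 (SE 0.12, edgeR adjusted p = 0.307). ENSECAG00000017765 (rank 7) had ratios of 1.21, 1.28, 1.503 and 1.33 in adult and 1.78, 2.32, 1.74 and 2.16 in fetal lines, again without overlap, and a difference of 0.56 (SE 0.15, edgeR adjusted p = 0.307). In the other direction ENSECAG00000016746 (rank 12) had ratios of 1.74, 1.62, 1.06 and 1.69 in adult and 1.32, 1.33, 1.10 and 1.44 in fetal lines. The stages overlapped, at a difference of -0.34 (SE 0.16, edgeR adjusted p = 0.324). ENSECAG00000011722 (rank 39) had a difference of -0.23 (SE 0.11, edgeR adjusted p = 0.333), also with overlap. Over all members, 8 had each fetal ratio above each adult ratio, against 10.1% of the 10991 genes, and 0 had the reverse, against 1.17%. With TMM scaling these counts were 4 and 1, against 4.17% and 4.80%. The share of members whose ratios separate by stage was thus near or below that of all genes.

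Levels without the SCX hairpin were compared between the stages in the 8 NT libraries, a contrast that the rule does not use. The NT levels themselves enter the choosing ratios and a level condition, and their part in the counts below was not tested. Of the members 99 passed the filter on low counts and 0 of these passed the test (edgeR adjusted p = 0.998 at the lowest), where 1 of 12384 genes did (0.00807%). DESeq2 called 1 of the 99 members with an adjusted p, where 22 of 12362 genes passed (0.178%), and limma voom called 0 members and 0.00807% of genes. At unadjusted p under 0.05, 2 members were higher in fetal lines (1.49% of genes tested) and 4 were lower (1.32%). The difference was above 0 in 34 of the 99, beside 50.5% of genes tested. Without line 319d, 7 members were lower. ENSECAG00000022423 (rank 48) had 41.0, 50.6, 37.2 and 17.9 CPM in adult NT libraries and 14.1, 18.2, 15.1 and 10.9 CPM in fetal NT libraries. Line S overlapped with the fetal lines. The fitted adult level was 2.36 times the fetal one (log2 of fetal over adult -1.24, SE 0.27, edgeR adjusted p = 0.998), and this was the member that DESeq2 called (adjusted p = 0.0147). ENSECAG00000014799 (rank 21) had 20.4, 18.8, 7.76 and 19.3 CPM in adult and 3.71, 1.76, 3.96 and 7.84 CPM in fetal NT libraries, with TB130911 just under 320d (log2 difference -1.86, SE 0.49, edgeR adjusted p = 0.998). Among members with higher fetal means, and also not past the threshold, were ENSECAG00000018841 (rank 10), at 109 ± 64.8 against 36.3 ± 21.5 CPM (SD, n = 4 each; log2 difference 1.61, SE 0.50, edgeR adjusted p = 0.998), and ENSECAG00000024827 (rank 9), at 2.75 ± 0.526 against 1.32 ± 0.665 CPM (SD, n = 4 each; log2 difference 1.16, SE 0.38, edgeR adjusted p = 0.998).

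**Figure D5:**
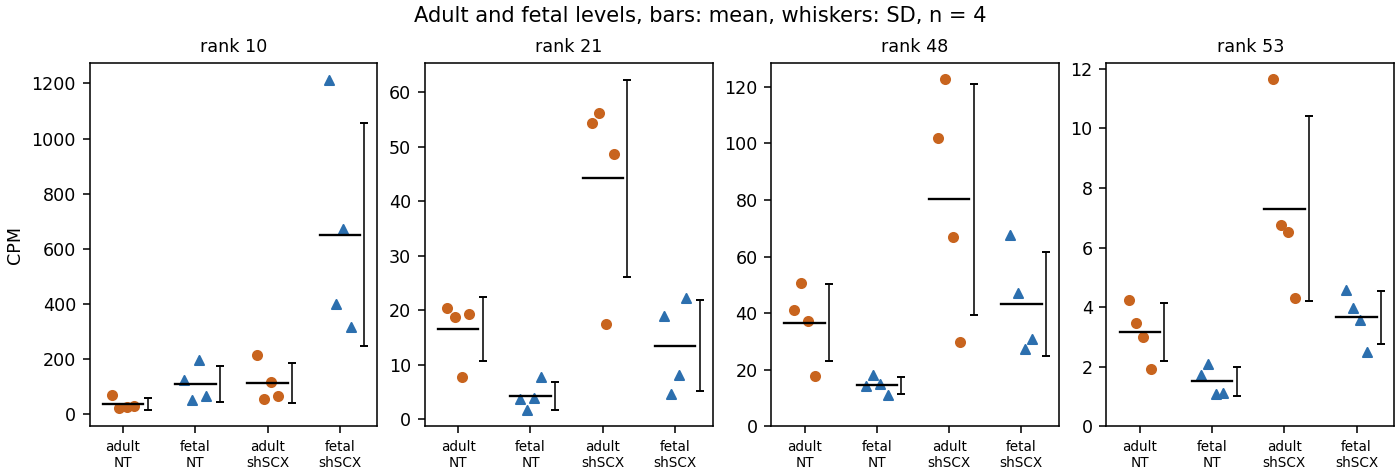
Level in CPM (linear axis) of ranks 10, 21, 48 and 53 in adult NT, fetal NT, adult shSCX and fetal shSCX libraries, with each library as a point, the group mean as a bar and the SD as a whisker (n = 4). Rank 10 is highest in fetal shSCX libraries, from 316 to 1214 CPM, and ranks 21 and 53 are highest in adult shSCX libraries.

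With the SCX hairpin the stages were compared in the same way over the 8 shSCX libraries, whose levels also enter the rule. All 100 members were tested and 0 passed (edgeR adjusted p = 0.539 at the lowest), where 1 of 12482 genes did (0.00801%). With DESeq2 1 of 99 members passed, where 57 of 11949 genes with an adjusted p did (0.477%), and with limma voom 0 members and 0.00801% of genes passed. A count of 1 gives no basis for setting the members apart from all genes in either contrast. At unadjusted p under 0.05, 5 members were higher in fetal lines (2.12% of genes tested) and 5 lower (2.32%), and the difference was above 0 in 48 members, beside 49.5% of genes tested. Without TB171012 12 members and without TB130911 8 were higher, and without TB180412, 316d or 319d 2 were lower. ENSECAG00000018841 (rank 10) had 214, 53.03, 117 and 66.1 CPM in adult and 1214, 401, 673 and 316 CPM in fetal shSCX libraries. The groups did not overlap, at 5.53-fold (log2 difference 2.47, SE 0.54, edgeR adjusted p = 0.539), and this was the member that DESeq2 called (adjusted p = 0.000716). ENSECAG00000016559 (rank 75) had a log2 difference of 1.45 (SE 0.48, edgeR adjusted p = 0.903), its adult maximum of 11.05 CPM lying above the 8.62 CPM of 320d. Lower in fetal shSCX libraries were ENSECAG00000034128 (rank 53), at 3.66 ± 0.878 against 7.31 ± 3.10 CPM (SD, n = 4 each; log2 difference -1.04, SE 0.32, edgeR adjusted p = 0.873), and ENSECAG00000014799 (rank 21), at 13.5 ± 8.38 against 44.2 ± 18.05 CPM (SD, n = 4 each; log2 difference -1.73, SE 0.55, edgeR adjusted p = 0.873). The stages overlapped in ranks 53 and 21. In rank 53 adult line S (4.31 CPM) lay under fetal line 271d (4.58 CPM), and without TB171012 its log2 difference was -0.73. In rank 21 adult line TB130911 (17.6 CPM) lay under fetal line 320d (22.2 CPM). On average rank 21 was thus lower in fetal lines by a similar factor with either hairpin, and rank 10 higher with both, although neither passed the edgeR test.

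The biological coefficient of variation between lines, the spread of counts beyond sampling as edgeR estimates it, had a median of 0.29 for the members in NT libraries and 0.28 in shSCX libraries, beside 0.29 and 0.30 over all genes tested. Within lines, in the interaction fit, it was 0.13 for the members and 0.14 over all genes.

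At the opposite end of the same 10991 genes the ratios were smaller. The 100 genes with the lowest maximum ratio had maxima from -1.03 to -0.19, and the median of their mean ratios was -0.63. One of these genes was at least 2-fold lower in 8 of 8 lines, where 13 members were at least 2-fold higher. Ratios were above 0 in 8 of 8 lines for 947 of the 10991 genes and below 0 for 577. Total-count scaling moves both counts, since the medians of all genes lay above 0 in the fetal lines. The level conditions also treat the 2 directions unalike. A mean of at least 2 CPM was asked of the shSCX libraries only, and the 100 genes highest in NT libraries were set aside. The part of these conditions in the differences between the 2 ends was not tested.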

How the data were processed

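Messenger RNA was sequenced in 16 libraries as read pairs. The authors deposited estimated counts per gene in an adult and a fetal table over the same 21689 identifiers. Column totals differed, and 94.6% to 95.8% of values were whole numbers to within 0.01. The deposited values were therefore treated as unscaled. The submitters' processing notes list Salmon, FastQC and R 3.5.2. The transcript set and build were not given in the sources used here. Salmon shares reads between similar transcripts, so near-identical gene copies are uncertain. Columns with the prefix TB and no number were assigned to TB171012, since every other adult title had its own columns.

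The members, lists and tests were chosen with earlier results of these data known. Identifiers named are the highest by minimum ratio and, per contrast and direction, the 2 members with the smallest p. Gene lists and markers were not used, for want of symbols. Rounded counts went into the quasi-likelihood test of edgeR 4.0.16 under R 4.3.3 (TMM, filterByExpr, Benjamini-Hochberg over all genes tested, threshold 0.05), and the designs were tested on simulated data. The standard error is the log2 difference over the square root of F. Alternatives were DESeq2 1.42.0, limma 3.58.1 voom, total-count scaling, other filters and pseudocounts, and leaving out each line. Both libraries of a line are paired by its name in the titles: deviations from group means correlated within lines at r = 0.318 (316d) to 0.896, and the NT partner was the closest match of the shSCX library in 7 of 8 lines, 316d being the exception. No columns were identical, and libraries of a group differed with a chi-square of at least 43.3 per degree of freedom, so each line counted as 1 replicate.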

Additional observations from a re-analysis of the deposited data

Results flagged for a closer look

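Libraries far from the other 3 of their group were sought in 86 groups of 4 values for the named members, ranks 3 and 47 and the members' median ratio (gap to the nearest library over the group's range, past Dixon's critical value). Chance gives about 1 in 20 groups, and 5 libraries were found. Ranks 3 and 47 are among the members that varied most between lines, so that rate is no measure for their groups. TB171012 was highest for rank 3, ENSECAG00000023733, with 245 CPM among adult NT and 3377 CPM among adult shSCX libraries, and for rank 47, ENSECAG00000000750, with 282 CPM among adult shSCX libraries. In rank 47 line 319d was highest among fetal NT libraries at 9.70 CPM. In rank 21, ENSECAG00000014799, TB130911 was lowest among adult NT libraries at 7.76 CPM. These values are on the linear CPM scale.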

How the results depend on the processing

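The list depended more on the summary than on the scaling: 93 members were kept with TMM scaling, 94 and 82 with a pseudocount of 0.5 and 5 CPM, 99 with no floor and 95 with a floor of 5 CPM, but 50 when genes were ordered by the mean ratio. With a line left out 75 (without TB130911) to 98 (without 320d) were kept. The median of the mean ratios, 1.14, was 0.91 with a pseudocount of 5 CPM, by construction of the larger constant, 1.17 with 0.5 CPM and 1.08 with TMM scaling. With a line left out, as added after seeing the data, it was 1.06 to 1.16. In the stage tests DESeq2 called 1 member in NT and 1 in shSCX libraries where edgeR called 0, and the cause was not tested; every other setting run, each line left out included, called 0. Without the line as a replicate block the interaction called 0 members as with it, and 1 member instead of 14 was at unadjusted p under 0.05 with the larger effect in fetal lines. The lowest count above 0 in a line left out was 91, and 94 with TMM scaling. No named member changed direction under any setting run. With total-count scaling 3 members in place of 5 were lower in fetal shSCX libraries at unadjusted p under 0.05. Counts under 10 in a library limit 6 members.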

Other observations

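Genes outside the list can be as high as the members in 7 lines and fail in 1. Among the 100 genes chosen without TB130911, 9 had a ratio below 0 in that line, the most for any line left out. The lowest of these, ENSECAG00000011498, chosen after its values were seen, had ratios of 0.63 to 3.65 in the other 7 lines and -2.63 in TB130911, where it went from 58.6 CPM with NT to 8.61 CPM with shSCX. Without 316d the lowest gene had a ratio of -0.51 there, and 0.67 to 2.90 in the other lines. For 271d, 320d and S no gene chosen in the other lines had a ratio below 0.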
